A study of Mus musculus with 6 samples.

Results

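Vegfa, Vegfb, Vegfc, Pgf, Angpt1, Angpt2, Angptl2 and Angptl4 encode secreted proteins of the VEGF and angiopoietin families, through which lung mesenchyme can signal to vessels. The 8 genes were taken by symbol from the 48397 symbols counted. All 8 were found and all 8 were among the 16198 genes that passed the filter on low counts and were tested. They were read in cells sorted from mouse lungs at postnatal day 8 for green fluorescence from a Pdgfra-EGFP reporter allele (PdgfraEGFP/+), which marks cells that use the Pdgfra locus, a PDGF receptor gene of fibroblasts and myofibroblasts. Pregnant PdgfraEGFP/+ dams had been injected into the peritoneum at E18.5 (embryonic day) with 5E1, an antibody that binds hedgehog ligands, or with control IgG. There are 3 libraries per group, and pups of both groups carried 1 reporter allele. The sort at day 8 selected cells by fluorescence of the reporter, so cells that had lost it by then were not selected in either group. Whether the sorted cells still used the Pdgfra locus at day 8 is not known from the sort. Nothing in the labels tells if replicates were single pups, pooled pups or littermates, and p-values therefore measure only the spread between these samples, which may be technical. By 4 Y-linked genes, 1 IgG and 1 5E1 library counted as without Y-linked reads, so the libraries were not all alike in sex. Values with ± are the mean and SD of 3 libraries.

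VEGF ligands act on receptor tyrosine kinases of endothelial cells: Vegfa drives the growth and survival of blood capillaries, Vegfc and its relative Vegfd (listed in the files under its older symbol Figf) act mainly on lymphatic endothelium, and Pgf and Vegfb bind the receptor encoded by Flt1. The angiopoietins share 1 receptor, encoded by Tek. Angpt1, made by mesenchymal cells around vessels, activates it and stabilises vessels, while Angpt2 can oppose that. Angiopoietin-like proteins resemble angiopoietins in structure but do not bind that receptor. During alveolar septation the capillary bed grows together with the septa, and epithelium, mesenchyme and endothelium exchange these signals.

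Depth, as reads counted on genes, was 16958433 to 28405457 in IgG and 18857199 to 34318583 in 5E1. The hedgehog target Ptch1, a receptor gene that the pathway itself induces, was at 405 to 415 CPM in IgG (reads scaled to a common library size, which was itself adjusted by the trimmed mean of M-values) and at 82.1 to 102 CPM in 5E1. Hhip and Gli1, induced by the pathway too, were also lower, with log2 fold changes of -2.37 and -1.122, so 3 of 4 listed targets fell. The libraries were mesenchymal by their markers, Col3a1 (20591 ± 4137 CPM in IgG, 32135 ± 7016 in 5E1) and Col1a1 (14753 ± 2608 and 23087 ± 8897) having the highest means over all 6 libraries. Markers of other cells were present at far lower sums. The 11 endothelial markers summed to 152 to 176 CPM in IgG and 140 to 295 in 5E1, and the 10 alveolar epithelial markers to 193 to 205 and 199 to 492. The highest sum of both belonged to 5E1 replicate 2. The 10 leukocyte markers summed to 40.6 to 50.9 CPM in IgG and 139 to 214 in 5E1, with S100a8 and S100a9 of neutrophils as the most abundant in 5E1. The 9 pericyte markers, of which Abcc9 and Rgs5 had the highest means over all 6 libraries, summed to 375 to 435 CPM in IgG and to 497, 509 and 556 in 5E1 replicates 1 to 3. No marker was at 0 in all libraries. Ly6g and Cd3e, of neutrophils and T cells, were at most 0.435 CPM in any library. The part of these cells in the results that follow was not tested.

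Of the 8 genes, 3 rose in cells of 5E1-exposed pups and none fell. These were Vegfc (2.34-fold), Pgf (2.0-fold) and Angpt1 (1.51-fold), and in each all 5E1 libraries lay above all IgG libraries. Vegfa, Vegfb, Angpt2, Angptl2 and Angptl4 did not pass the test, and their groups overlapped. A gene was called at a Benjamini-Hochberg adjusted p under 0.05 in edgeR's quasi-likelihood test over all genes. By that rule 12.1% of all tested genes rose and 11.1% fell (23.2% in either direction), and for 42.2% the groups did not overlap (20.8% higher in 5E1, 21.4% lower). Without 5E1 replicate 2, 3 of the 8 genes rose and 1 fell. The median log2 fold change of the 8 genes was -0.02, beside 0.00087 for all tested genes. In bulk RNA, fewer cells of a type and less RNA per cell cannot be told apart.

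**Figure D1:**
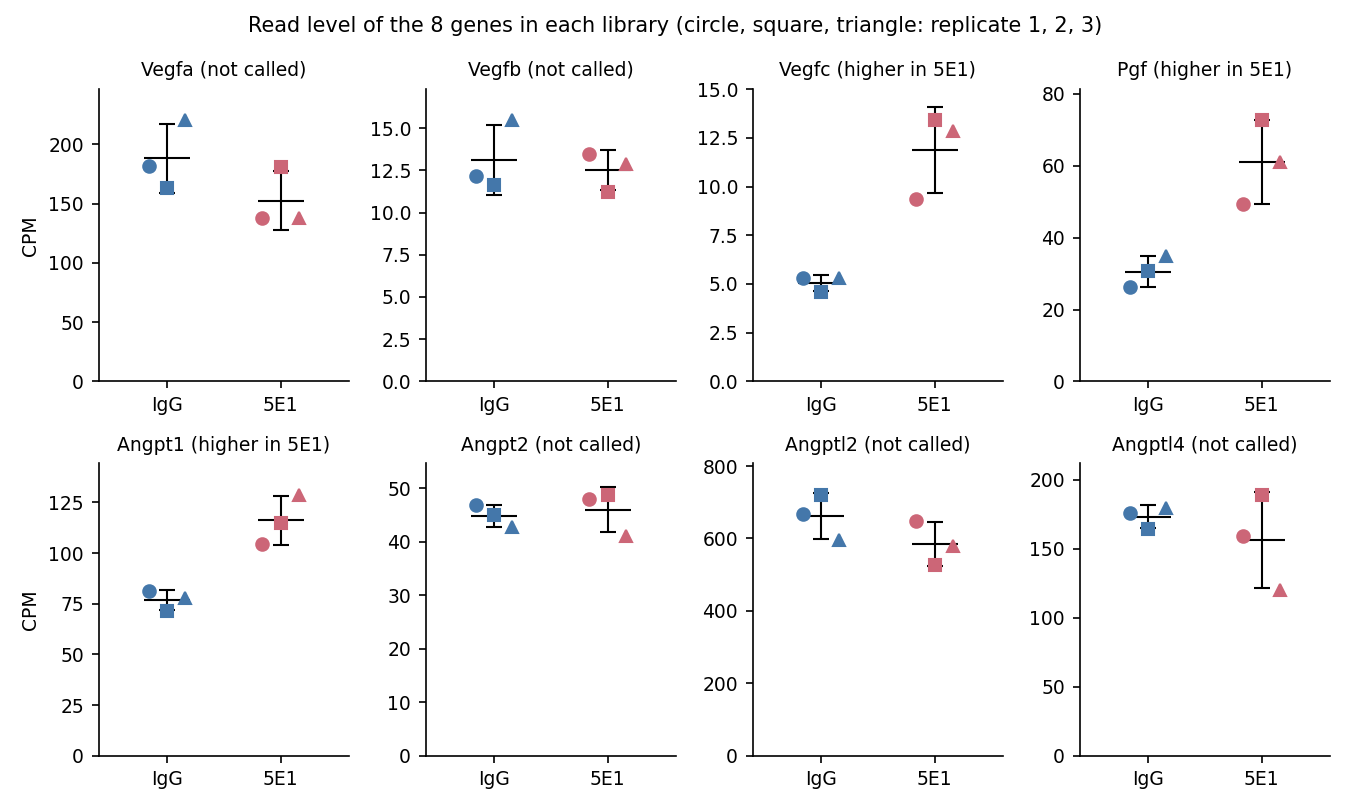
Level of each of the 8 genes (vertical axis, CPM, starting at 0) in the 3 IgG and 3 5E1 libraries, with the mean as a line and the SD as a bar. The groups are apart for Vegfc, Pgf and Angpt1 and overlap for the other 5 genes.

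Vegfc, the lymphatic growth factor gene on chromosome 8 (54077606 to 54187096, mm10), was at 5.31, 4.59 and 5.30 CPM in IgG replicates 1 to 3 and at 9.35, 13.4 and 12.8 CPM in 5E1 replicates 1 to 3. The lowest 5E1 library was thus well above the highest IgG library. It rose by 1.23 on the log2 scale (SE 0.18, 95% interval 0.82 to 1.63; edgeR adjusted p 0.00110). Vegfc is a low transcript here, with 82 to 156 reads in IgG libraries and 172 to 450 in 5E1 libraries. Without 5E1 replicate 2 its log2 fold change was 1.130 and the edgeR adjusted p 0.00226.

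Pgf, the placental growth factor gene on chromosome 12 (85166635 to 85177790), was at 26.2, 30.6 and 34.9 CPM in IgG and at 49.2, 72.6 and 61.0 CPM in 5E1. The groups were apart, and the spread among the 5E1 libraries was the wider one. The means were 30.6 ± 4.36 and 60.9 ± 11.7 CPM. On the log2 scale the rise was 0.999 (SE 0.15, 95% interval 0.66 to 1.34) with an edgeR adjusted p of 0.00162. Without 5E1 replicate 2, the highest library, it was 0.85 with an edgeR adjusted p of 0.00176.

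Start regions of the genes were searched for 2 motifs, on both strands: the core that hypoxia-inducible factors bind, ACGTG or GCGTG, and TGGGTGGTC, a 9-base form of the site bound by GLI factors, through which hedgehog acts. Of the 8 genes 5 had a start region in the RefSeq table (GRCm38.p6), with 7 windows of 250 bases before the start in all. The hypoxia core lay in 3 of the 7, beside 38.6% of 32851 such windows of all genes, and the GLI letters in none, beside 0.225%. The window of Vegfc, the gene with the largest rise of the 8, is shown together with that of Vegfa, which was not called. Capitals would mark either motif, and neither window holds one. The GLI letters are so rare in such windows that finding none in 7 tells nothing about these genes. Bases farther than 250 from the start were not searched for either motif. Vegfc lies at chr8:54077282-54077531 on the plus strand and Vegfa at chr17:46032378-46032627 on the minus strand.
Vegfc: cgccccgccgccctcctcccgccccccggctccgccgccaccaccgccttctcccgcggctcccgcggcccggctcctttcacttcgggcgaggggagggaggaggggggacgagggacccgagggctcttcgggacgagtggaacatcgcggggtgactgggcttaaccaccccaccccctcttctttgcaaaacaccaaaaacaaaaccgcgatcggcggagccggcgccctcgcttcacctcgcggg
Vegfa: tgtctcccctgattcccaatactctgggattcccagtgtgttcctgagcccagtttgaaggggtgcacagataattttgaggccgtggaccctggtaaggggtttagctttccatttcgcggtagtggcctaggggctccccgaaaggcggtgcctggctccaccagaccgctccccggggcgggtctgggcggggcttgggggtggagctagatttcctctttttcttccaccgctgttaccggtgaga
The first of the 2 windows of Pgf held 1 hypoxia core, in capitals here with 10 bases on each side, 124 bases before the start at chr12:85177423-85177447 on the minus strand.
Pgf: cctgcggggtCACGCgcactcaggt
These letters describe the windows. Vegfb (2 matches) and a second start of Vegfa (2 matches) held the core too, so it was found both in a gene that rose and in genes that were not called. The window of that second start (chr17:46025164-46025413) lies inside the Vegfa gene, not before it.

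Of the angiopoietins, Angpt1 was called and Angpt2 was not, and the test of their ratio follows. Angpt1, the agonist, on chromosome 15 (42424723 to 42676977), was at 81.2, 71.4 and 77.7 CPM in IgG and at 104, 115 and 129 CPM in 5E1. The rise was moderate but the libraries of each group lay close together. Angpt1 rose by 0.60 on the log2 scale (SE 0.10, 95% interval 0.38 to 0.81; edgeR adjusted p 0.00170), and by 0.60 without 5E1 replicate 2 (edgeR adjusted p 0.00253). Pericytes are a known source of Angpt1, and 3 of 9 pericyte markers rose and 1 fell, beside 12.1% and 11.1% of all tested genes. The log2 fold changes of the 9 markers ran from -2.26 to 0.95, so the largest change was the fall. Abcc9 rose from 111 ± 25.9 to 201 ± 21.1 CPM, and Rgs5 (99.2 ± 10.4 and 85.6 ± 17.3 CPM) was not called. The part of pericytes in the Angpt1 level was not tested. Of its 5205 exon bases, 737 overlap Gm17473 on the opposite strand, a gene with 1 to 5 reads per library.

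Angpt2, the context-dependent antagonist, on chromosome 8 (18690263 to 18741562), was at 46.9, 45.03 and 42.8 CPM in IgG and at 48.0, 48.9 and 41.2 CPM in 5E1. The groups overlapped almost wholly. A log2 fold change of 0.04 (95% interval -0.17 to 0.24) had an edgeR adjusted p of 0.823, and its sign turned with library size alone (-0.10) and without IgG replicate 3 or 5E1 replicate 2. The ratio of Angpt2 to Angpt1 per kilobase of exon was 0.815, 0.889 and 0.776 in IgG and 0.649, 0.599 and 0.451 in 5E1, so every 5E1 library had the lower ratio. The mean fell from 0.827 ± 0.0574 to 0.567 ± 0.103. The mean of the log2 ratio differed by -0.56, which is 1.47-fold lower. A two-sided exact permutation test gave p = 0.1, the smallest that 3 against 3 libraries allow, so this ratio could not pass 0.05.

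**Figure D2:**
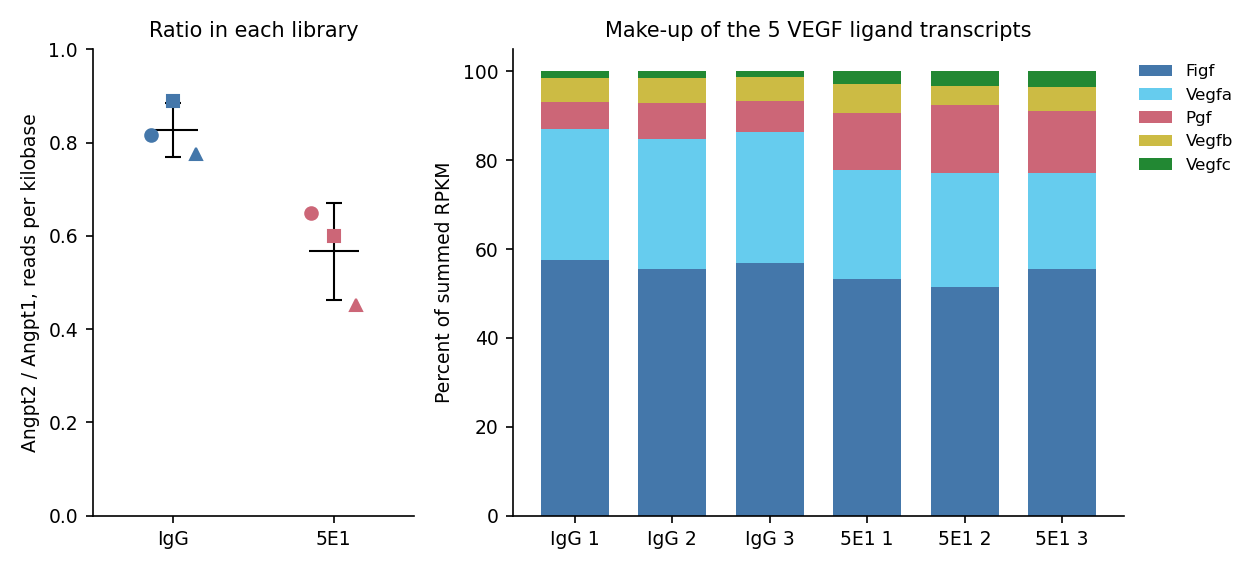
Left, the ratio of Angpt2 to Angpt1 reads per kilobase in each library, with mean and SD, which is 0.776 to 0.889 in IgG and 0.451 to 0.649 in 5E1. Right, the share of each VEGF ligand transcript in their summed RPKM (percent, 1 bar per library), in which the Pgf and Vegfc segments are larger in every 5E1 bar.

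Vegfa, on chromosome 17 (46016993 to 46032369), the main growth factor gene for lung capillaries, was at 182, 163 and 220.1 CPM in IgG and at 138, 181 and 138 CPM in 5E1. Replicates 1 and 3 of 5E1 lay below every IgG library, and 5E1 replicate 2 lay among them. Its log2 fold change was -0.31 (SE 0.14, 95% interval -0.61 to 0.00052) with an edgeR adjusted p of 0.137, which did not pass. Without 5E1 replicate 2 it was -0.45 and passed, with an edgeR adjusted p of 0.0221. That library had the highest sum of alveolar epithelial markers (492 CPM, beside 274 and 199 in 5E1 replicates 1 and 3) and of endothelial markers. Alveolar epithelium is a known source of Vegfa, and its part in the Vegfa level was not tested. Vegfa also passed with library size alone (-0.45, adjusted p 0.0493) and with no low-count filter (-0.32, adjusted p 0.0114). The annotation lists 13 transcripts of Vegfa, whose proteins differ in how tightly they bind matrix, and gene counts do not part them.

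Vegfb, on chromosome 19 (6982473 to 6987651), whose product binds the same receptor as Pgf, was at 12.2, 11.6 and 15.5 CPM in IgG and at 13.5, 11.2 and 12.8 CPM in 5E1. The 5E1 libraries lay within or near the IgG range. With a log2 fold change of -0.07 (95% interval -0.41 to 0.27) and an edgeR adjusted p of 0.779, Vegfb did not pass. Its sign turned without IgG replicate 3 or 5E1 replicate 2.

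The angiopoietin-like genes of the 8 were abundant and not called. Angptl2, on chromosome 2 (33216069 to 33247717), encodes a secreted protein linked to inflammation and matrix remodelling. It was at 667, 721 and 595 CPM in IgG and at 647, 526 and 580.2 CPM in 5E1, with overlapping groups. Angptl2 differed by -0.18 on the log2 scale (95% interval -0.43 to 0.08) with an edgeR adjusted p of 0.296. Angptl4, on chromosome 17 (33773750 to 33781830), encodes an inhibitor of lipoprotein lipase that fatty acids and low oxygen induce. It was at 176, 164 and 179.8 CPM in IgG and at 159, 189 and 120.1 CPM in 5E1. The IgG libraries were close together, while 5E1 replicate 2 was the highest and 5E1 replicate 3 the lowest of all 6. For Angptl4 that difference was -0.15 (95% interval -0.47 to 0.17) with an edgeR adjusted p of 0.494, and without 5E1 replicate 3 it was 0.0048.

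Levels of different genes were set side by side as RPKM, which is the CPM divided by exon length in kilobases. In IgG the order of the 8 genes was Angptl2 (105 ± 10.1 RPKM), Angptl4 (48.96 ± 2.32), Vegfa (43.9 ± 6.80), Angpt1 (14.7 ± 0.951), Angpt2 (12.2 ± 0.562), Pgf (10.5 ± 1.503), Vegfb (8.16 ± 1.29) and Vegfc (2.07 ± 0.169). Angptl4 and Vegfa overlapped, as did Angpt2 with Pgf and Pgf with Vegfb. In 5E1, Pgf (20.99 ± 4.03 RPKM) stood above Angpt2 (12.5 ± 1.14) with no overlap, and overlapped Angpt1 (22.3 ± 2.36). Vegfc remained the lowest of the 8 at 4.84 ± 0.897 RPKM. With the longest transcript as the length instead of all exons, Vegfa came above Angptl4 in IgG, Pgf above Angpt2 in IgG and Pgf above Angpt1 in 5E1.

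**Figure D3:**
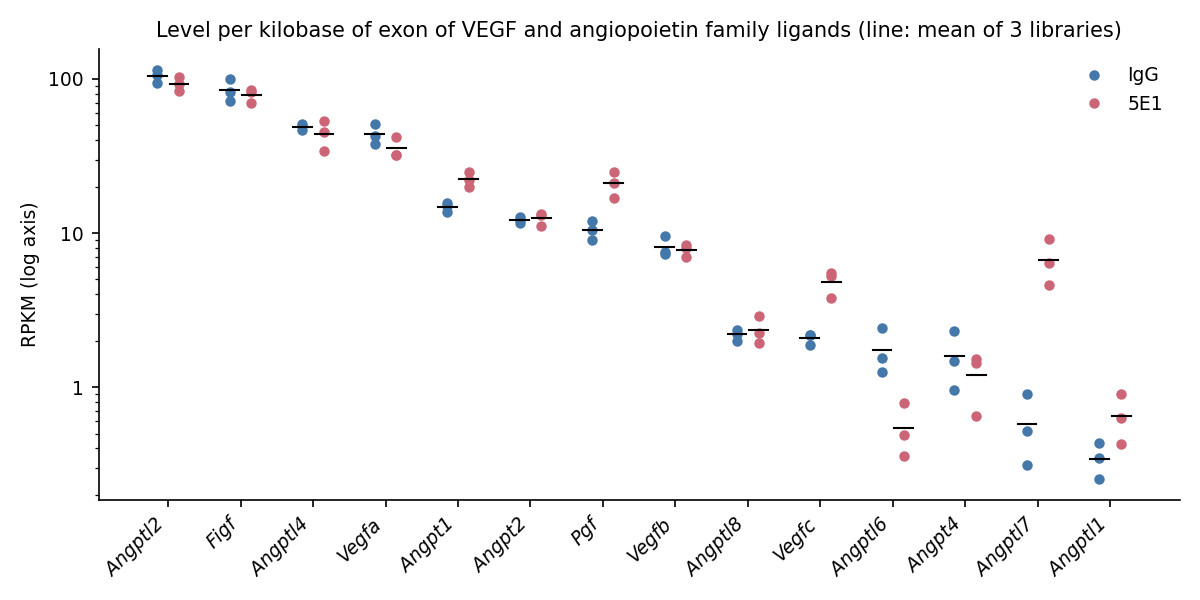
RPKM (log axis) of the 14 tested ligand genes of the VEGF, angiopoietin and angiopoietin-like families in each library, ordered by their mean in IgG, with the group mean as a line. Angptl2, Figf, Angptl4 and Vegfa lead in both groups.

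Among the 5 VEGF ligand transcripts the most abundant per kilobase was that of Figf, not Vegfa. Figf was at 84.8 ± 13.8 RPKM in IgG and 79.1 ± 7.79 RPKM in 5E1. Summed over the 5 ligands, the RPKM was 149 ± 23.0 in IgG and 148 ± 16.3 in 5E1, with overlapping groups, while its make-up differed. Pgf held 6.28% to 8.11% of the sum in IgG and 12.9% to 15.2% in 5E1. Vegfc held 1.24% to 1.51% and 2.90% to 3.52%. Vegfa held 29.3% to 29.5% in the IgG libraries and 21.6% to 25.7% in the 5E1 libraries. Figf held 55.6% to 57.5% and 51.5% to 55.4%. Parts of 1 sum depend on each other, so larger shares of some ligands lower those of others. Neither Vegfa nor Figf was called on its own level. These shares were computed after the values of the single genes had been seen, and no test was made.

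The other tested ligands of these families include the gene with the largest change, Angptl7. Of these 6, 1 rose and 1 fell, beside 12.1% and 11.1% of all tested genes. Angptl7, a matrix-associated member known from the outflow tissue of the eye, was at 1.124, 0.672 and 1.96 CPM in IgG and at 13.9, 9.91 and 19.7 CPM in 5E1. Its rise was 11.2-fold (log2 fold change 3.48, SE 0.38) with an edgeR adjusted p of 0.000445. Angptl6 was at 1.98, 3.81 and 2.43 CPM in IgG and at 1.25, 0.566 and 0.773 CPM in 5E1. Angptl6 had a log2 fold change of -1.69 (edgeR adjusted p 0.0127, or 0.0575 without IgG replicate 2). Its counts are uncertain, since 265 of its 1582 exon bases overlap A230050P20Rik on the opposite strand, which had 423 to 1160 reads per library against 19 to 68 for Angptl6. Figf (log2 fold change -0.10), Angpt4 (-0.43), Angptl1 (0.93) and Angptl8 (0.08) were not called, with edgeR adjusted p of 0.120 to 0.867.

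Of 11 receptor and co-receptor genes, 4 rose and none fell, also without 5E1 replicate 2, beside 12.1% and 11.1% of all tested genes. The number that rose was 3 with library size alone and without IgG replicate 1, 2 or 3. It was 5 with no low-count filter, with the replicate block and without 5E1 replicate 3. Nrp1, a co-receptor for VEGF ligands that fibroblasts also make, rose from 287 ± 17.7 to 454 ± 60.4 CPM (log2 fold change 0.66, edgeR adjusted p 0.00236). Tek, the angiopoietin receptor gene, was at 29.9, 23.5 and 21.1 CPM in IgG and at 38.6, 47.0 and 50.7 CPM in 5E1 (log2 fold change 0.87, edgeR adjusted p 0.00227). Without 5E1 replicate 2, Tek was at 0.85 and Nrp1 at 0.64, both called. Tek was highest in 5E1 replicate 3, the library with the lowest endothelial sum of all 6 (140 CPM) and the highest pericyte sum (556 CPM). Of the 9 pericyte markers 3 rose and 1 fell, again beside 12.1% and 11.1% of all tested genes, with log2 fold changes of -2.26 to 0.95. The part of either cell type in the Tek level was not tested.

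Flt1, which encodes the receptor for Vegfa, Vegfb and Pgf, was at 6.20, 7.06 and 5.84 CPM in IgG and at 10.9, 26.1 and 9.76 CPM in 5E1. Replicate 2 stood apart, as it did in the endothelial sum (295 CPM, beside 191 and 140). Flt1 had a log2 fold change of 1.31 with an edgeR adjusted p of 0.0446, and 0.70 with an adjusted p of 0.0154 without that library. The call ended without IgG replicate 1, 2 or 3 and with library size alone (edgeR adjusted p 0.0685 to 0.151). Pirb, a leukocyte receptor for Angptl2, was at 1.06 to 1.74 CPM in IgG and 3.39 to 4.24 in 5E1, and its log2 fold change was 1.31 (edgeR adjusted p 0.00802). Of 8 tested leukocyte markers 5 rose and none fell, beside 12.1% and 11.1% of all tested genes. S100a8 rose from 3.03 to 49.8 CPM and S100a9 from 6.21 to 74.3 CPM. The part of leukocytes in the Pirb level was not tested.

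The other 7 receptor genes were not called. Kdr had a log2 fold change of 0.26, Flt4 of 0.72, Tie1 of 0.42 and Ptprb, a phosphatase that restrains the Tek receptor, of 1.03, with edgeR adjusted p of 0.158 to 0.511. Without 5E1 replicate 2, Kdr and Tie1 changed sign (-0.03 and -0.19). Ptprb was called with the replicate number as a block (adjusted p 0.00382), and Flt4 with no low-count filter (0.0490) and without 5E1 replicate 3 (0.0462). Of 11 endothelial markers, 1 rose (Plvap, log2 fold change 0.90) and 1 fell (Erg, -0.44), beside 12.1% and 11.1% of all tested genes. Both were named after their values were seen. Ramp2 and Cdh5, with the highest means over all 6 libraries, had edgeR adjusted p of 0.654 and 0.527. Cdh5 was at 63.5 CPM in 5E1 replicate 2 and at 18.1 to 31.2 in the others, and in IgG Erg (29.4 CPM) was above it (24.9 CPM). Nrp2, Itga5 and Itgb1 were not called either, at 0.21, 0.11 and -0.09.

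**Figure D4:**
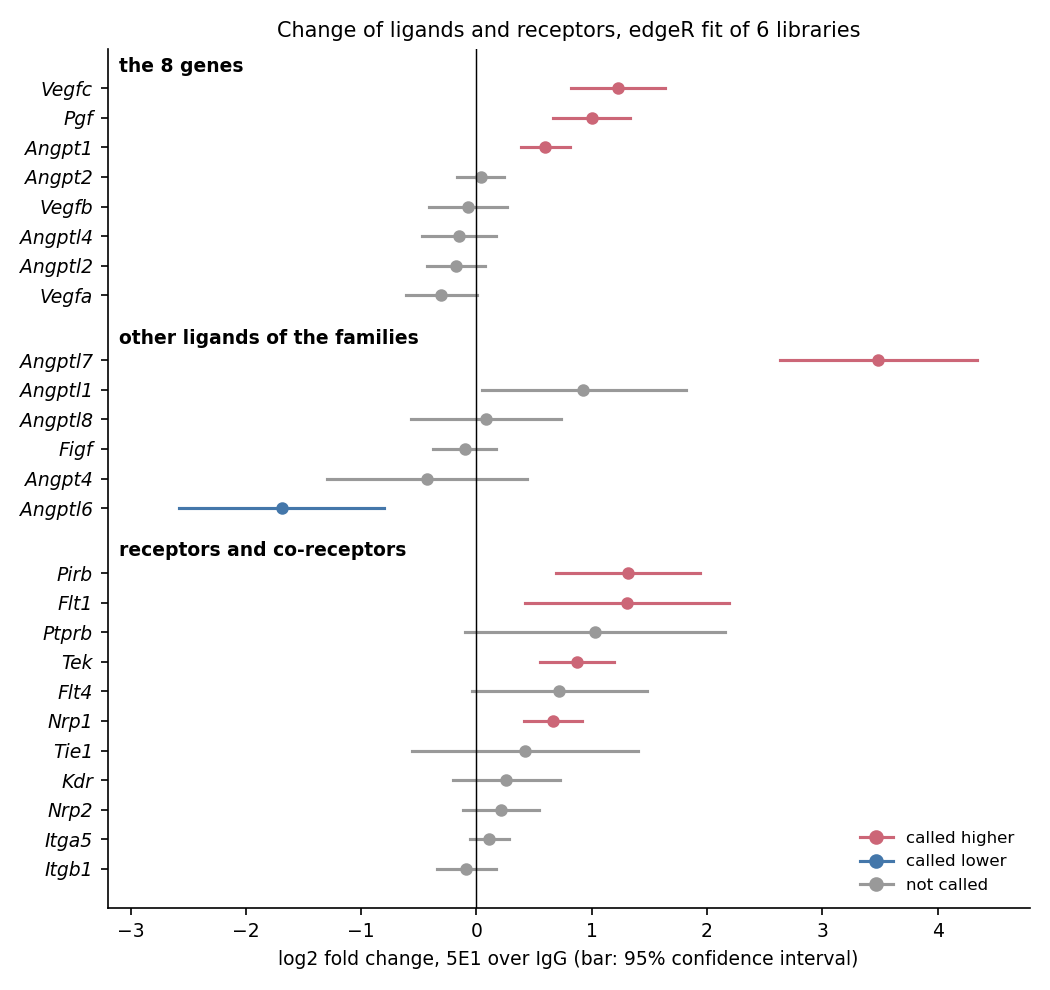
Log2 fold change of 5E1 over IgG (horizontal axis) with its 95% interval for the 8 genes, the 6 other tested ligands and 11 receptor genes, coloured by call. Vegfc, Pgf, Angpt1, Angptl7, Pirb, Flt1, Tek and Nrp1 rose and Angptl6 fell.

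Proteins that bind, cleave or release the ligands were read from a list of 13 genes, chosen with earlier results of these data known. Of the 13, 5 rose and none fell, beside 12.1% and 11.1% of all tested genes. Without 5E1 replicate 3, 3 rose, and with library size alone 2 fell. The median log2 fold change of the 13 was 0.40, beside 0.00087 for all tested genes. Adamts3, the protease that cleaves the Vegfc precursor into its active form, was at 4.67 to 4.93 CPM in IgG and 7.44 to 8.36 in 5E1. Its log2 fold change was 0.70 with an edgeR adjusted p of 0.0141, and 0.0611 or 0.0636 without IgG replicate 1 or 5E1 replicate 3. It was named after its value was seen. Ccbe1, the cofactor of that cleavage, had a log2 fold change of 0.40 and an edgeR adjusted p of 0.0752, and was also named afterwards. Svep1, a matrix protein gene that takes part in angiopoietin signalling of lymphatic vessels, rose from 222 ± 8.69 to 352 ± 52.9 CPM, and 2244 of its 16117 exon bases overlap Gm26889 on the opposite strand. Adamts1, whose product can bind Vegfa, rose from 622 ± 99.9 to 1109 ± 193 CPM. Lpl, the lipase that Angptl4 inhibits, rose from 113 ± 21.7 to 243 ± 63.5 CPM (edgeR adjusted p 0.0122, and 0.0502 without 5E1 replicate 3), while Angptl4 itself was not called. Mmp9, a gelatinase that can free Vegfa from matrix and that neutrophils store, was low and rose from 1.21 to 7.79 CPM, beside the leukocyte markers given above.

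Among 23 tested genes for other signals to vessels, 7 rose and 6 fell, beside 12.1% and 11.1% of all tested genes. With no low-count filter 11 of 24 tested genes rose and 5 fell. The number that fell was 4 without IgG replicate 1 and 7 with library size alone. Thbs1, an inhibitor of angiogenesis, rose from 2974 ± 8.74 to 5807 ± 1339 CPM, and Slit3, a guidance ligand gene that promotes vessel growth, from 199 ± 39.2 to 463 ± 102.2 CPM. Vash1, an inhibitor that endothelium makes in response to Vegfa, fell from 29.97 ± 1.77 to 18.2 ± 2.76 CPM. Lect1, the gene of the cartilage inhibitor chondromodulin, was counted 150 times in IgG as a whole and 0 times in 5E1. With 3 reads per group as the floor, that is at least 52.9-fold lower. The list thus held both promoters and inhibitors of vessel growth among those that rose.

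Vegfa and Angptl4 are known targets of hypoxia-inducible factors, and Angptl4 of PPAR and glucocorticoid receptors as well, so their values were set beside lists of other genes with these inducers. Of 16 hypoxia-responsive genes 8 rose and 1 fell, and the median log2 change was 0.42. Bnip3 (1.19), Ndrg1 (0.98) and Pfkfb3 (0.58) rose, and Egln3, the oxygen-sensing hydroxylase gene, fell from 63.4 ± 7.78 to 10.6 ± 1.75 CPM. With library size alone, or without IgG replicate 2 or 3 or 5E1 replicate 3, 4 of them rose, and with library size alone 3 fell. Of 10 PPAR-responsive genes 5 rose and none fell, among them Pdk4 (log2 fold change 2.44), Fabp4 (2.68) and Acadm (0.47). With library size alone or without IgG replicate 2, 3 rose, and the call of Acadm ended (edgeR adjusted p 0.0539 or 0.0523). Of 10 glucocorticoid-responsive genes 9 rose and none fell, with a median of 1.52, and those with the smallest p were Zbtb16 (5.54), Sgk1 (1.23), Klf9 (1.25) and Tsc22d3 (1.66). Of all tested genes, 12.1% rose and 11.1% fell, and the lists were chosen with earlier results of these data known. Vegfa and Angptl4 had log2 fold changes of -0.31 and -0.15, below the medians of the 3 lists, and were not called. All of these are relative levels of the same 6 libraries. A test of a gene against a list was not made, and the part of these inducers was not tested.

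The genes whose pattern over the 6 libraries was most like that of Vegfc, the most raised of the 8, were Ndrg2, Spock2 and Ifngr1, with Pearson r of log2 CPM of 0.999, 0.998 and 0.998 among 10859 genes (mean CPM of 5 or more). All 3 were themselves called higher in 5E1, so the points share the difference between the groups. For Vegfa, the lowest of the 8 by log2 fold change, they were Lmln, Ndufa5 and Klhl20 (r of 0.985, 0.983 and 0.980), none of them called. With 6 libraries and this many genes, such values describe the likeness only.

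The calls of Vegfc, Pgf and Angpt1 stood under all 15 alternative analyses, with log2 fold changes of 1.08 to 1.37, 0.85 to 1.127 and 0.45 to 0.66 and edgeR, DESeq2 or limma-voom adjusted p of at most 0.00769, 0.0102 and 0.0111. Vegfb, Angpt2, Angptl2 and Angptl4 were not called under any of the 15.

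**Figure D5:**
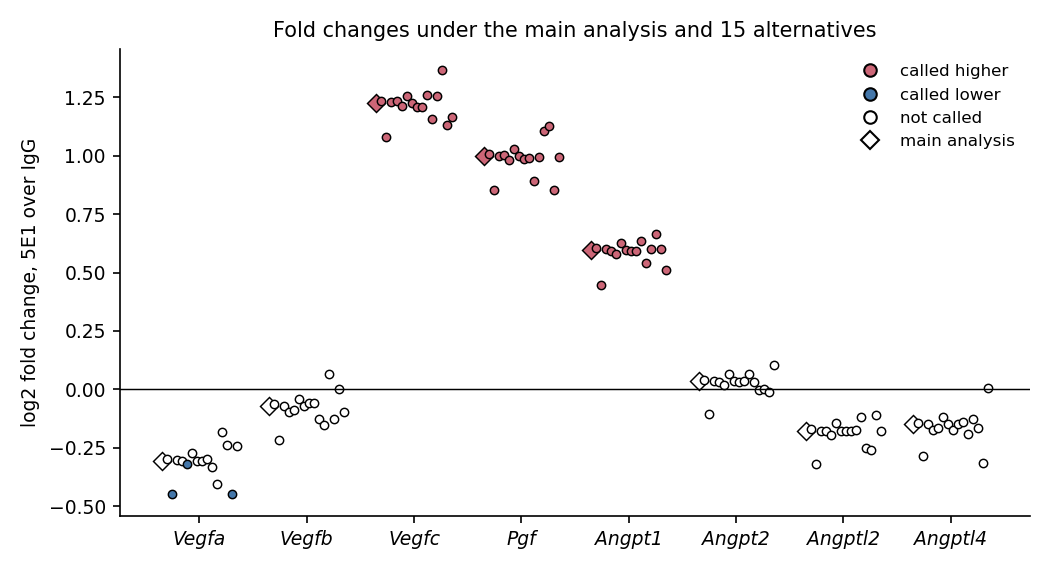
Log2 fold change of 5E1 over IgG (vertical axis) of each of the 8 genes in the main analysis (diamond) and under 15 alternatives (circles), filled where called. The lowest value among Vegfc, Pgf and Angpt1 rounds to 0.45 (Angpt1 with library size alone), and Vegfa is called lower under 3 alternatives.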

How the data were processed

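The authors deposited 1 file of raw read counts per gene symbol for each of 6 libraries. Per the labels' protocols, a stranded mRNA kit was used on sorted live EGFP+ cells. The submitters' processing notes name HTSeq 0.6.0, STAR 2.5.0c, R 3.5.1, DESeq2 1.10.0, Picard 1.126 and bedtools 2.17.0, without their roles, and mm10. Annotation and strand setting: not given in the sources used here. Reads of overlapping genes on opposite strands may be mixed. The 5 summary lines of each file (36.4% to 54.7% of its reads) name no gene and were left out. No replicates were close enough to be 1 library (chi-square over degrees of freedom 16.1 to 55.8).

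Genes were kept with filterByExpr (minimum count 10, minimum total 15), scaled by TMM and fitted on group alone in R 4.3.3 (edgeR 4.0.16, glmQLFTest after robust glmQLFit, prior count 0.125), two-sided, with Benjamini-Hochberg adjustment over all 16198 genes. The script was tested on simulated data. The SE was taken from the unshrunken coefficient and its F, and intervals are at 95%. Lengths and positions come from GENCODE M21 (GRCm38, the mm10 build). Alternatives used RLE or library size alone, DESeq2 1.42.0, limma-voom 3.58.1, other filters, no robust estimation, the replicate number, Y-linked reads, and each library left out. The members and lists were chosen with earlier results of these data known. Named were all 8 genes, the other tested ligands and the receptors, up to 4 called genes of smallest p per list, the 2 markers per list with the highest mean over all libraries and the 3 genes most like the highest and lowest member. Others are said to be named afterwards. Some genes under this rule are not reported here.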

Additional observations from a re-analysis of the deposited data

How the results depend on the processing

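The number of genes called was 3757 (1966 higher, 1791 lower). With 1 library left out it ran from 2305 to 3704, with 1221 to 1885 higher and 1073 to 1819 lower. Without TMM, on library size alone, 3274 genes were lower, the share of calls that were higher went from 52.3% to 28.6%, and the median of all genes moved by -0.14 (log2). Relative to that shift the fall of Vegfa with library size alone (-0.45) was about as in the main analysis. Of the 8 genes, 3 were higher under every alternative run. The count lower was 0, and 1 (Vegfa) with library size alone, with no low-count filter and without 5E1 replicate 2, so 0 to 1 with 1 library left out. Signs turned only among genes that were not called. Angpt2 was at -0.10 with library size alone and -0.0030 without IgG replicate 3, and ran from -0.014 (without 5E1 replicate 2) to 0.106 with 1 library left out. Vegfb was at 0.0020 without 5E1 replicate 2 and ran from -0.15 to 0.064 (without IgG replicate 3). Angptl4 ran from -0.31 to 0.0048 (without 5E1 replicate 3). The cause was not tested. Libraries of the same replicate number did not vary alike (correlations of deviations from the group means -0.14, -0.0076 and -0.07). With 3 libraries per group this cannot exclude that they were paired. With the replicate block 3220 genes were called, and 3 of the 8 genes were higher and 0 lower, as without it. Ratios of Angpt2 to Angpt1 differed by a log2 of -0.67 to -0.40 with 1 library left out.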
